A study of Mus musculus with 2 samples.

Results

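The serpins are a superfamily of proteins, most of which inhibit serine proteases by trapping the enzyme in a covalent complex. Members of clade a are mostly secreted plasma proteins such as the antitrypsins, and members of clade b mostly stay in the cell, where several guard it against granzymes and cathepsins. Clades e to h hold protease nexin 1 (Serpine2), pigment epithelium-derived factor (Serpinf1), the C1 inhibitor (Serping1) and the collagen chaperone Serpinh1, which does not inhibit proteases. In the pregnant uterus, plasminogen activators and their inhibitors take part in matrix turnover around implantation. Members were chosen by symbol, as genes that follow the mouse serpin naming pattern, and 60 of them are described here, of 31053 genes in the feature table. They comprised 24 genes of clade a, 26 of clade b, 6 of clades e, f, g and h, and 4 of clades c, d and i.

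The data were 2 droplet single-cell RNA-seq libraries of whole mouse uterus taken on gestational day 4. One came from the genotype labelled Mettl14 f/f and the other from that labelled Mettl14 d/d, by convention the loxP-flanked and the deleted allele. Mettl14 encodes a subunit of the m6A RNA methyltransferase. The labels name neither the promoter that drove the deletion, nor the strain, the age or the number of animals behind a library. With 1 library per genotype no difference was tested: intervals cover counting error only, and genotype, animal and library preparation cannot be told apart.

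The quality filters kept 7095 cells of the f/f and 5977 of the d/d library, whose median depth was 6085 and 5217 unique molecular identifiers (UMIs, each standing for 1 captured RNA molecule). Levels are given as CPM, the UMIs of a gene in a cell class per class total, in the usual scaling of that unit. The Mettl14 level was 15.5 CPM (f/f) and 5.53 CPM (d/d) over all cells, and the d/d over f/f ratio 0.358 (95% interval 0.307 to 0.416). In blood endothelium it was 18.7 and 18.3 CPM. Stroma-like cells numbered 4706 and 1705, epithelial cells 178 and 147, smooth muscle cells 445 and 1478, pericyte-like cells 300 and 663, blood endothelial cells 487 and 603, macrophage- or monocyte-like cells 245 and 308, and dendritic-like cells 157 and 150 (f/f first), and these 7 classes were compared. The f/f epithelium split into 73 luminal-like and 105 glandular-like cells, whereas 146 of the 147 d/d epithelial cells fell in neither part. The summed level of 9 stromal markers, set against their level in stroma (10706 and 18275 CPM, f/f first), was a larger share in f/f than in d/d in each of the other classes compared. In macrophage-like cells it was 37.9% of that in stroma in the f/f library and 4.25% in the d/d library, with none of the 9 at 0. In NK-like cells it was 11.4% and 0.814%, with 3 of the 9 at 0 in d/d. In blood endothelium it was 8.47% and 2.67%, and in epithelium 4.63% and 0.923%. In pericyte-like cells and lymphatic endothelium the markers' own level was higher in d/d (6389 and 7545 CPM, and 614.1 and 711.9 CPM).

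Of the 60 serpins, 25 gave no UMI in any kept cell, 20 gave 1 to 49, 8 gave at least 50 but under 1000, and 7 gave 1000 or more. Together they held 151226 UMIs. Clades e, f, g and h supplied 135983 of them, and Serpinh1 alone 57.7%. Clade b supplied 9.06%, clade a 0.598%, and clades c, d and i 0.419%. The 12 silent genes of clade a included the antitrypsin copy Serpina1a, the kallikrein-binding Serpina3k and the thyroxine carrier Serpina7, and the 12 silent genes of clade b included Serpinb3a to Serpinb3d and Serpinb9c to Serpinb9g. Of the 100-base stretches at the ends of Serpinb9f transcripts, 84.3% also occur in other genes, and 18.2% of those of Serpinb9e do. Their counts of 0 are therefore uncertain. Most members sit in clusters of neighbouring copies. On the mm10 genome 23 clade a genes lie on chromosome 12 between 103614786 and 104414329, 11 clade b genes on chromosome 1 between 106861173 and 107610484, and 15 on chromosome 13 between 32842092 and 34002794. The 6 genes of clades e, f, g and h are scattered over 5 chromosomes.

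**Figure D1:**
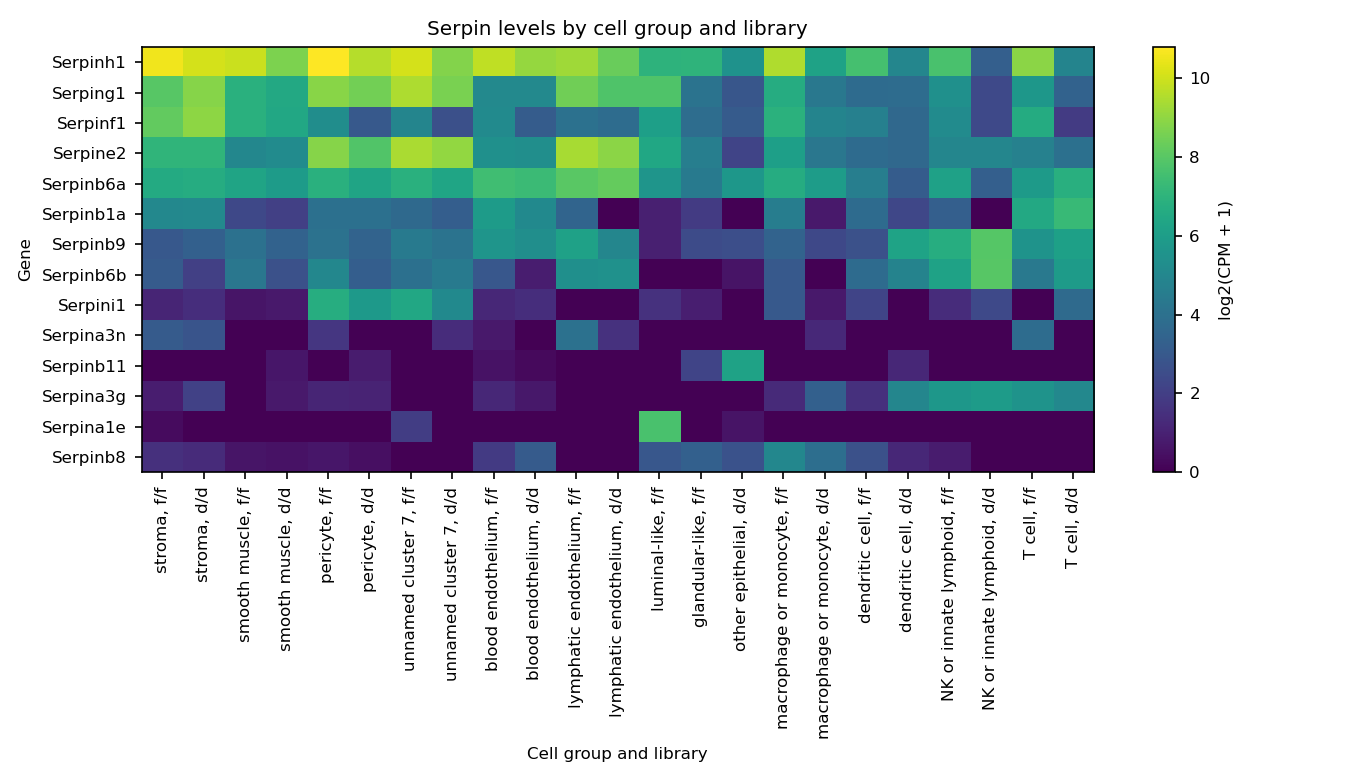
Level of the 14 serpins with at least 200 UMIs, as log2(CPM + 1), in each cell group (columns, f/f and d/d library); colour runs from 0 (dark) to the highest level (yellow). Serpinh1 is yellow to green in the stroma and mural cells, and Serpina1e and Serpinb11 each light up in 1 epithelial part.

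Each ratio below is the d/d level over the f/f level in 1 class. A member counted as higher or lower in d/d when the ratio reached 1.5-fold and the class held at least 50 UMIs of it over both libraries. The median log2 ratio over all genes with that many UMIs was between -0.20 and -0.05 in the 7 classes, and between -0.02 and 0.01 under TMM scaling.

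In stroma, 12 of the 60 members passed the 50-UMI minimum. Of these, 3 were higher in d/d (Serpina3g, Serping1 and Serpinf1), 1 was lower (Serpinb6b) and 8 were neither, while 35.3% of the 12530 genes with that many UMIs passed 1.5-fold in either direction (15.5% higher and 19.8% lower). The share of serpins called was near that of all genes. Stroma of the libraries lay mostly in different clusters (0, 1, 8 and 22 for f/f, 3 for d/d), but clusters 5 and 12 held at least 50 cells of each. In cluster 5, led by Lum, C3 and Clec3b, 7 members had enough UMIs, of which 0 were higher and 1 lower (Serpinh1), with 26.8% of all genes called there (12.2% higher and 14.6% lower). In cluster 12 it was 0 higher and 1 lower (Serpinh1) of 6, with 37.2% of all genes called (12.8% higher and 24.4% lower).

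Serping1 (ENSMUSG00000023224, chr2:84765387-84775444) is the inhibitor of the complement proteases C1r and C1s. Its stromal level was 251.9 CPM (f/f) and 458.5 CPM (d/d), with a ratio of 1.82 (1.76 to 1.88). It varied widely among stromal clusters. Cluster 5 held 1025 (f/f) and 1493 CPM (d/d), the other f/f clusters 106 to 352 CPM, and cluster 3, which held most d/d stroma, 266 CPM. Cluster 5 made up 7.29% of f/f stroma (95% Clopper-Pearson interval 6.56 to 8.07) and 29.7% of d/d stroma (27.6 to 32.0). Without cluster 5, an alternative chosen after seeing the data, the Serping1 ratio was 1.21 (1.16 to 1.26), within cluster 5 it was 1.46 (1.37 to 1.55), and in the dividing cells of cluster 12 it was 0.945 (0.754 to 1.17). None of these reached 1.5-fold. Outside the stroma Serping1 was 472.9 and 359.1 CPM in pericyte-like cells (ratio 0.759, 0.691 to 0.834), 115.3 and 89.1 CPM in smooth muscle, 33.1 and 32.6 CPM in blood endothelium, and 12.6 and 13.0 CPM in dendritic-like cells, none of which passed 1.5-fold.

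Serpinf1 (ENSMUSG00000000753, chr11:75409769-75422701) is an inhibitor of blood vessel growth that binds collagen and does not inhibit proteases. Its stromal level was 293.3 CPM (f/f) and 495.3 CPM (d/d), with a ratio of 1.69 (1.64 to 1.74), and of 1.67 (1.61 to 1.73) without cluster 5. Within cluster 5 the levels were 485.9 and 605.8 CPM (ratio 1.25, 1.14 to 1.37), and in cluster 12 they were 205.0 and 307.1 CPM (ratio 1.498, 1.28 to 1.75, just short of the threshold). Outside the stroma its levels were lower: smooth muscle held 113.3 and 89.0 CPM, pericyte-like cells 38.1 and 7.13 CPM, and dendritic-like cells 25.3 and 11.7 CPM.

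Serpinh1 (ENSMUSG00000070436, chr7:99345376-99353239) is the chaperone of the endoplasmic reticulum that binds folded procollagen. Among the named classes it was highest in pericyte-like cells in the f/f library (1773 CPM, 1711 to 1837) and in stroma in the d/d library (1087 CPM). The f/f stromal level was 1526 CPM, which gave a ratio of 0.713 (0.699 to 0.726), short of 1.5-fold. Cluster 5 held 4119 CPM in its f/f cells, the highest of the stromal clusters, and 1480 CPM in its d/d cells (ratio 0.359, 0.344 to 0.375). In the dividing cells of cluster 12 the ratio was 0.587 (0.535 to 0.643). Serpinh1 was also lower in d/d smooth muscle (964.1 and 409.8 CPM, ratio 0.425), in pericyte-like cells (775.0 CPM in d/d, ratio 0.437) and in blood endothelium (858.9 and 539.1 CPM, ratio 0.628, 0.597 to 0.660).

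As a list, collagen and collagen-folding genes did not move with Serpinh1 over all stroma. Of 26 collagen chains and collagen-folding genes in stroma, 5 were higher and 1 lower in d/d (15.5% and 19.8% of all genes), with a median log2 ratio of 0.22. Col1a1 stood at 2774 and 6277 CPM and Col3a1 at 3866 and 6556 CPM. Within cluster 5 the same list went the other way, with 0 higher and 18 lower of 26 (12.2% and 14.6% of all genes) and a median log2 ratio of -0.70. P4ha2, a collagen prolyl hydroxylase subunit, was 275.1 and 83.8 CPM there, and Sparc, a collagen-binding matrix protein, 8698 and 3905 CPM. Outside stroma, 0 of 26 partners were higher and 9 lower in smooth muscle as well as in blood endothelium, where 16.4% and 11.8% of all genes were lower. In pericyte-like cells 1 was higher and 7 lower, near the 23.1% of all genes that were lower there.

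**Figure D2:**
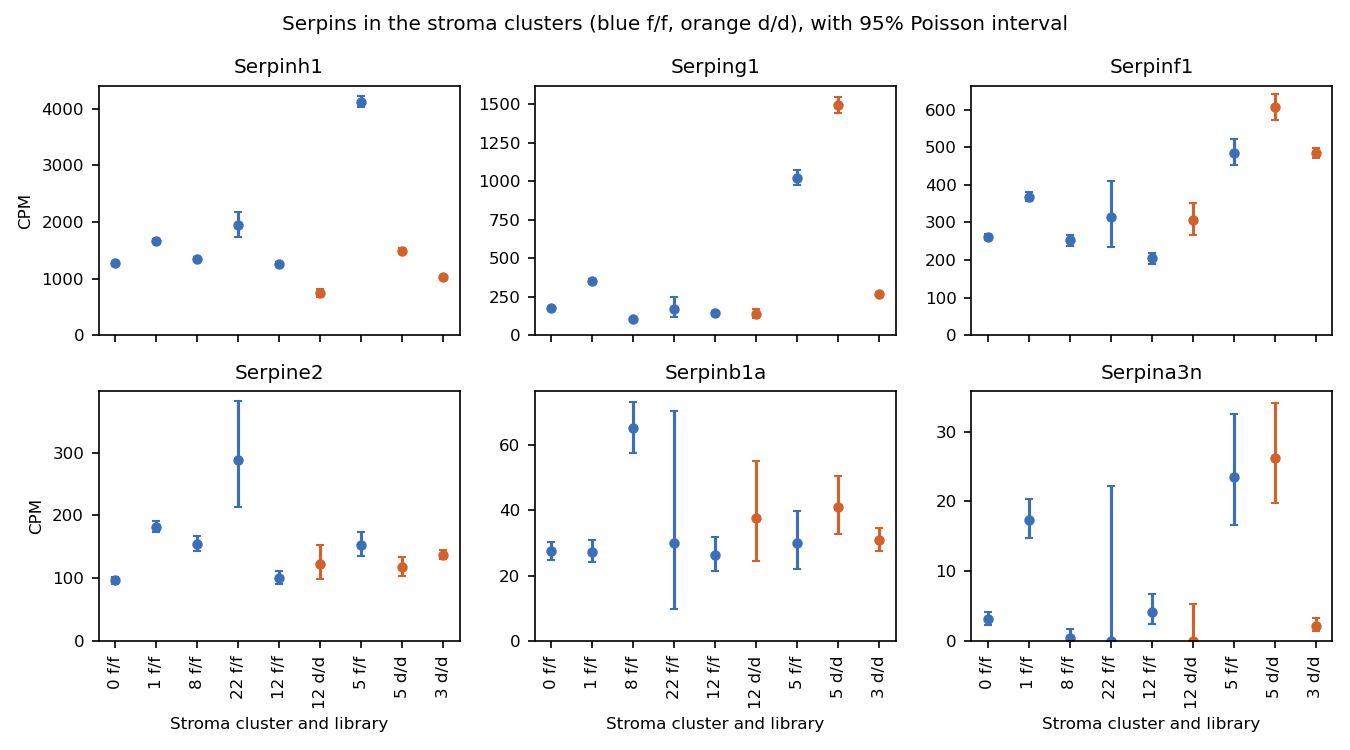
CPM of 6 serpins (y axis, from 0) in each stromal cluster and library with at least 50 cells (x axis), with the 95% Poisson interval. The d/d cells of cluster 5 hold the highest Serping1 level of the stroma (1493 CPM), and its f/f cells hold the highest Serpinh1 level (4119 CPM).

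**Figure D3:**
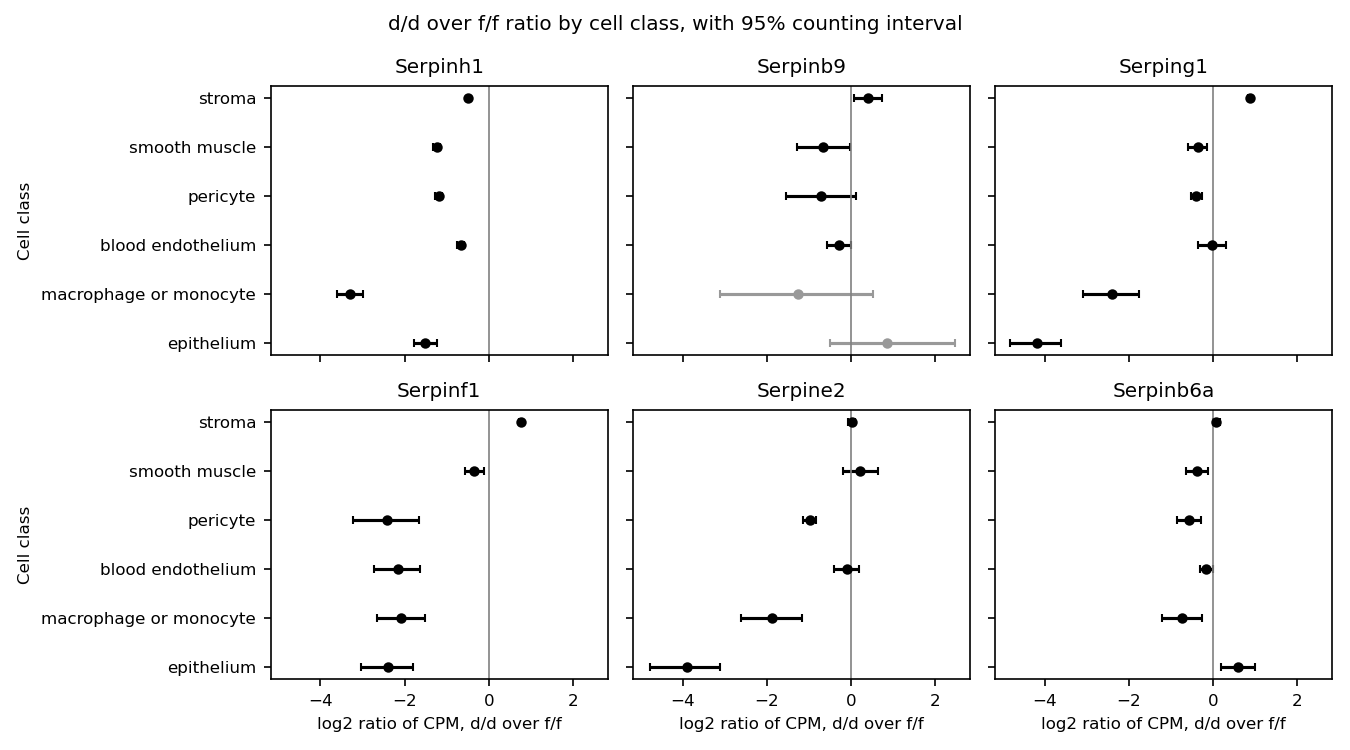
log2 of the d/d over f/f CPM ratio (x axis) of 6 serpins in 6 cell classes, with the 95% counting interval; the grey points have under 50 UMIs. Serpinh1 lies to the left of 0 in every class drawn, Serping1 and Serpinf1 lie right of 0 in stroma and left in epithelium, and Serpinb9 lies right of 0 in stroma and left of 0 in smooth muscle.

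Serpine2, or protease nexin 1, inhibits thrombin, urokinase and plasmin at the cell surface. Over all stroma it was 131.2 and 133.0 CPM (ratio 1.01, 0.958 to 1.07). Its levels were highest in unnamed cluster 7, which carried both pericyte and smooth muscle markers (679.2 and 527.8 CPM), lymphatic endothelium (659.7 and 481.5 CPM) and pericyte-like cells (457.5 and 232.3 CPM). The first 2 of these did not differ beyond their intervals in f/f (594 to 773 and 551 to 783 CPM). In smooth muscle Serpine2 was 30.8 and 35.8 CPM, in blood endothelium 41.8 and 38.9 CPM, and in dendritic-like cells 12.6 and 11.7 CPM. The pericyte ratio of 0.508 (0.456 to 0.565) lost its 1.5-fold call when doublets were kept (log2 ratio -0.34) or when cluster 7 was counted with pericytes (-0.39).

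Stroma held small amounts of the clade a serpins Serpina3n and Serpina3g. Serpina3n was 7.66 and 5.996 CPM (ratio 0.782, 0.599 to 1.01). It was concentrated in cluster 5 (23.6 and 26.2 CPM) and f/f cluster 1 (17.4 CPM), with 2.17 CPM in d/d cluster 3. Without cluster 5 the Serpina3n ratio was 0.306 (0.190 to 0.471), from 222 f/f and 23 d/d UMIs, which passed 1.5-fold. Serpina3g was 0.799 and 3.31 CPM, from 27 f/f and 43 d/d UMIs (ratio 4.14, 2.50 to 6.96). The d/d stromal level of Serpina3g was 10.2% of that in d/d T-like cells, which numbered 58 in f/f and 257 in d/d. The 37 d/d NK-like cells held a higher level still. Whether RNA of these lymphoid cells contributed to the stromal count was not tested. Cluster 5 held 10 of the f/f and 30 of the d/d UMIs, too few for a call, with a ratio of 2.24 (1.07 to 5.14) there. Of the 100-base stretches at the ends of Serpina3g transcripts, 5.21% also occur in neighbouring Serpina3 copies. Serpinb6b, a clade b member of the chromosome 13 cluster, was the 1 lower call in stroma (7.60 and 3.15 CPM, ratio 0.414, 0.291 to 0.578). Cluster 12, with 15 and 3 Serpinb6b UMIs, had too few for a call. The f/f stromal level was 10.2% of that in f/f NK-like cells, which numbered 222 in f/f and 37 in d/d. Whether RNA of those cells contributed was not tested.

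Serine proteases that serpins act on were read from a list of 28. In stroma 10 passed the minimum, of which 6 were higher and 2 lower in d/d, while 15.5% of all stromal genes were higher and 19.8% lower. The 2 lower ones, named after their values were seen, were the granzymes Gzma (63 and 2 UMIs) and Gzmb (80 and 1 UMIs). Gzma is among the markers used here to name NK-like cells, which numbered 222 in f/f and 37 in d/d. Whether RNA of those cells contributed to these stromal counts was not tested. The tissue-type activator Plat was 49.8 and 87.2 CPM, the urokinase Plau 2.34 and 6.46 CPM, its receptor gene Plaur 2.81 and 6.61 CPM, and the matrix protease Htra3 66.8 and 158.8 CPM. The endocytic receptor Lrp1, which clears serpin-protease complexes, was 304.0 and 321.9 CPM. The Plat ratio was 1.75 (1.62 to 1.89). Among 10 cathepsins, the proteases that several clade b serpins guard against, 4 were higher and 1 lower, with Ctsk at 75.3 and 258.5 CPM. Of 16 receptors and cofactors, 4 were higher and 3 lower, and the thrombin receptor Thbd was 34.0 and 103.2 CPM. Of 17 inhibitors from other families, 2 were higher (A2m 12.2 and 156.2 CPM, Timp3 101.0 and 165.9 CPM) and 4 lower, including Pi15 (317.1 and 153.4 CPM).

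Lists of TGF-beta response genes and of immediate early and heat shock genes were read beside the serpins. Both lists hold Junb, so they overlap. Of 13 TGF-beta response genes that passed the minimum in stroma, 7 were higher and 2 lower in d/d (15.5% and 19.8% of all genes). Those higher included Pmepa1 (38.4 and 166.6 CPM) and Bhlhe40 (11.98 and 76.5 CPM). The list's median log2 ratio was 0.86, against -0.13 over all genes, and its summed UMIs gave a log2 ratio of 0.244. Of 18 immediate early and heat shock genes, 17 were higher and 0 lower, with a median log2 ratio of 2.28: Ier3 stood at 12.7 and 132.4 CPM and Hspa1a at 262.1 and 1553 CPM. Such genes were higher in 15 of 18 cases in smooth muscle (10.7% of all genes) and in 18 of 18 in blood endothelium (11.3%). The same held for 17 of 18 in pericyte-like cells (11.7% of all genes) and 15 of 18 in macrophage-like cells (17.3%). In epithelium 4 of 18 were higher and 4 lower (15.5% and 24% of all genes). Dendritic-like cells had 1 of 17 higher and 3 lower (12.6% and 23.7% of all genes). Tissue dissociation can induce genes of that kind, and their part in the serpin differences was not tested.

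In epithelium, 7 members passed the minimum and all 7 were called: 2 higher in d/d (Serpinb11 and Serpinb6a) and 5 lower (Serpina1e, Serping1, Serpine2, Serpinf1 and Serpinh1), while 39.5% of 8720 genes were called in either direction (15.5% higher and 24% lower). An overall epithelial ratio mixes cell makeup and level, since the f/f parts were absent or nearly so in d/d. Each part was therefore also set against the d/d epithelium. Against f/f luminal-like cells 1 of 7 was higher and 5 lower, with 47.9% of all genes called (24.9% higher and 23% lower), and against f/f glandular-like cells 2 of 3 were higher and 1 lower, with 39.7% called (15.7% higher and 24% lower).

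Serpina1e (ENSMUSG00000072849, chr12:103946931-103958975), a mouse copy of alpha-1-antitrypsin, the plasma inhibitor of neutrophil elastase, was found almost wholly in the luminal-like cells. It had 215 UMIs in the 73 f/f luminal-like cells (205.3 CPM, 179 to 235), with a UMI in 75.3% of them and in 35.7% after every cell was thinned to 2000 UMIs. The 105 f/f glandular-like cells had 0 UMIs (3 counts, the limit that a count of 0 allows, would be 2.69 CPM), and the 147 d/d epithelial cells had 2 UMIs (0.480 CPM). The d/d over luminal-like ratio was 0.00234 (0.000281 to 0.00854). Stroma, which should lack the gene, held 8 Serpina1e UMIs in f/f cells (0.237 CPM) and 0 in d/d cells. The other antitrypsin copies gave at most 3 UMIs each, and the last 500 bases of Serpina1e transcripts share no 100-base stretch with another gene. For the silent copy Serpina1a, 33.1% of these stretches also occur in other genes, Serpina1b to Serpina1e among them, so its count of 0 is uncertain.

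Serpinb11 (ENSMUSG00000026327, chr1:107361198-107380475), a clade b gene, showed the reverse. It had 0 UMIs in f/f luminal-like cells (3 counts would be 2.87 CPM), 4 UMIs in glandular-like cells (3.58 CPM, 0.977 to 9.18) and 304 UMIs in d/d epithelium (72.9 CPM, 65.0 to 81.6). The ratio was 39.4 (15.2 to 146) against all f/f epithelium and 20.3 (7.87 to 75.2) against the glandular-like cells, and the level was at least 25.5-fold higher than in luminal-like cells, with 3 counts over the group as the floor. In d/d, 76 of 147 epithelial cells (51.7%, 43.3 to 60.0) held a Serpinb11 UMI, and 13.2% after thinning, against 2.25% and 1.18% of f/f epithelial cells. The median depth of the d/d epithelial cells was 16171 UMIs, against 9289 UMIs of the f/f ones. The highest cell held 17 UMIs, or 5.59% of the total, and neither stroma gave a single Serpinb11 UMI.

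Windows at RefSeq start sites of these genes are shown because their levels are nearly exclusive between the epithelial parts. The windows run from 250 bases before to 50 after the start site (GRCm38.p6). They were found for 52 of the 60 members and searched on both strands for 10 motifs. In the Serpinb11 window the AP-1 motif TGANTCA occurred at 2 places, -181 to -175 and -76 to -70, and it occurred in 7.81% of all 32851 promoter windows and in 11 of 61 serpin windows. A CCAAT box lay at -161 to -157. Windows of the chromosome 1 neighbours Serpinb2, Serpinb5, Serpinb7, Serpinb8 and Serpinb12 also held an AP-1 motif. Of these, Serpinb7 gave no UMI, and Serpinb5 and Serpinb12 gave none in d/d epithelium. Serpinb8 was 7.86 and 5.52 CPM in epithelium, from 17 f/f and 23 d/d UMIs. Both Serpinb11 AP-1 motifs lie within an annotated Serpinb11 exon of GENCODE M21. Each is printed with 10 bases on either side and the motif in capitals, from chr1:107362123-107362149 and chr1:107362228-107362254 (plus strand).
Serpinb11 distal site: aagtatagtgTGATTCAgaaagcacag
Serpinb11 proximal site: ggtgaagagcTGAATCAtaacaacaca

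The Serpina1e window held no AP-1 motif and 3 CCAAT boxes (CCAAT on either strand, in capitals), a motif present in 37.4% of all windows. The windows of the copies Serpina1a to Serpina1d, with at most 3 UMIs each, held 2 or 3 CCAAT boxes and an AP-1 motif. The 249 bases before the annotated Serpina1e exon, at chr12:103956899-103957147 on the minus strand, are given 5′ to 3′. They lie inside the GENCODE gene, whose outermost start is further upstream. A match describes these letters and is not a measured binding site.
Serpina1e: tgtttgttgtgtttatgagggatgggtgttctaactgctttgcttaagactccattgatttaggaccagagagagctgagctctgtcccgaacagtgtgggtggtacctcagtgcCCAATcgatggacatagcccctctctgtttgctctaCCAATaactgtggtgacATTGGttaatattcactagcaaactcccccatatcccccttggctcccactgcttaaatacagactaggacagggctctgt

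Serping1 was also highest in the luminal-like part of the epithelium. It stood at 226.4 CPM in f/f luminal-like cells (198 to 257), with a UMI in 83.6% of cells, at 16.1 CPM in glandular-like cells and at 6.48 CPM in d/d epithelium. The luminal-like level of Serping1 was 89.9% of the f/f stromal level, whereas the stromal markers stood at 5.21% in the same cells. In d/d epithelium Serping1 was 1.41% of the stromal level, beside markers at 0.923%, and the d/d over luminal-like ratio was 0.0286 (0.0185 to 0.0427). Serpine2 was 85.96 CPM in luminal-like cells, 23.3 in glandular-like cells and 3.60 in d/d epithelium, and its luminal-like level was 65.5% of the stromal level. Serpinf1 was 66.9, 13.4 and 7.44 CPM in the same order, the glandular-like value being 4.58% of the stromal level, where the markers stood at 4.08%.

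Serpinh1 was low in epithelium (126.1 CPM in luminal-like, 127.2 in glandular-like and 44.6 in d/d cells), at 8.26%, 8.34% and 4.10% of stroma. Serpinb6a, an intracellular inhibitor of cathepsin G and other serine proteases, was 48.7 CPM in luminal-like cells, 20.6 in glandular-like cells and 51.3 in d/d epithelium. Its ratio was 1.501 (1.15 to 1.98) over all epithelium, 2.49 (1.62 to 4.01) against glandular-like and 1.05 (0.773 to 1.46) against luminal-like cells. With the epithelial sub-cluster that had been set aside, the overall log2 ratio was 0.176, which ended the call. Among clade b genes typical of squamous epithelia, Serpinb5 (maspin) gave 8 f/f UMIs and 1 d/d UMI over all cells.

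**Figure D4:**
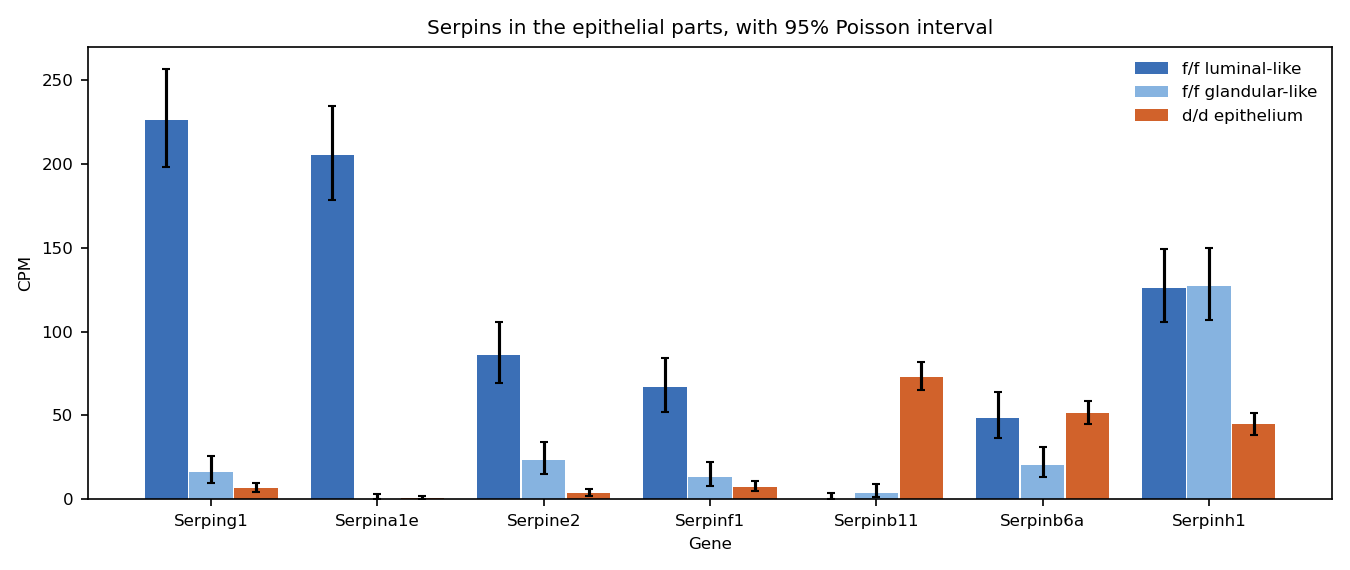
CPM (y axis, from 0) of 7 serpins in f/f luminal-like cells, f/f glandular-like cells and d/d epithelium, with the 95% Poisson interval. Serping1, Serpina1e, Serpine2 and Serpinf1 peak in luminal-like cells, and Serpinb11 peaks in d/d epithelium.

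Partner genes in the epithelium differed in makeup from those in stroma. Plat was 181.2 (f/f) and 442.6 CPM (d/d) (ratio 2.44, 2.19 to 2.73), while the other 5 proteases that passed the minimum were 0 higher and 2 lower (15.5% and 24% of all epithelial genes). Plaur gave 0 UMIs in the f/f and 78 in the d/d epithelium (18.7 CPM), at least 13.5-fold higher with 3 counts as the floor. The endocytic receptor Lrp2, also a luminal marker, was 576.1 and 10.8 CPM. Of the non-serpin inhibitors, 1 was higher and 4 lower of 9: Spink1, a trypsin inhibitor and gland marker, was 3453 and 229 CPM, and Wfdc2 2816 and 638 CPM.

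In pericyte-like cells 9 members passed, 0 were higher and 6 lower in d/d (Serpinh1, Serpine2, Serpini1, Serpinf1, Serpinb6b and Serpinb9), with 34.9% of 8349 genes called either way (11.7% higher and 23.1% lower). Serpini1 (neuroserpin, an inhibitor of Plat described in neurons) was 105.8 CPM in f/f pericyte-like cells against 57.0 CPM in d/d ones (ratio 0.539, 0.432 to 0.671). Outside them Serpini1 reached 88.2 and 34.2 CPM in unnamed cluster 7 but only 1.18 and 1.69 CPM in stroma. Serpinb6b was 31.3 and 8.26 CPM in pericyte-like cells (ratio 0.264, 0.153 to 0.440), and the Serpinb9 ratio of 0.612 had an interval (0.345 to 1.08) that included 1. The Serpinb9 call ended with doublets kept, with cluster 7 counted as pericytes and under TMM scaling (log2 ratio -0.283, -0.367 and -0.526). With doublets kept, the log2 ratio went from -2.42 to -1.16 for Serpinf1 and from -1.92 to -0.755 for Serpinb6b, and the class also grew from 300 to 431 f/f and from 663 to 1250 d/d cells. The stromal markers stood at 59.7% of stroma in f/f and 41.3% in d/d pericyte-like cells, but their own summed level was higher in d/d (6389 and 7545 CPM). Serpinf1 stood at 13.0% and 1.44% of its stromal level in pericyte-like cells, beside 11.9% and 1.57% in blood endothelium. The part of stromal RNA in its lower level was not tested.

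In smooth muscle 7 members passed, with 0 higher and 3 lower (Serpinh1, Serpinb6b and Serpinb9), and 27.1% of 10129 genes were called (10.7% higher and 16.4% lower). Serpinb6b was 18.5 and 5.40 CPM there (ratio 0.293, 0.185 to 0.465). The stromal markers stood at 25.8% (f/f) and 11.4% (d/d) of stroma in smooth muscle, and their part in the lower serpin levels was not tested. In 3 other ways of clustering the smooth muscle class took up more cells (493 to 496 f/f and 1919 to 1923 d/d), and its Serpinb6b log2 ratio went from -1.77 to -1.06. Serpinb9, the inhibitor of granzyme B, was 15.4 and 9.65 CPM (ratio 0.627, 0.409 to 0.986), a call that ended in 6 of the alternatives (log2 ratio -0.584 to -0.443). In blood endothelium 7 passed, with 0 higher and 3 lower (Serpinh1, Serpinf1 and Serpinb1a), and 23.1% of 9957 genes were called (11.3% higher and 11.8% lower). With doublets kept it was 1 higher and 4 lower. Serpinb1a, an intracellular inhibitor of neutrophil proteases, was 60.3 and 33.8 CPM (ratio 0.561, 0.459 to 0.684), and lower in d/d in both large endothelial clusters (62.4 and 40.6 CPM in cluster 10, 55.5 and 25.7 CPM in cluster 11). It was 32.2 and 33.3 CPM in stroma, 14.8 and 14.6 CPM in pericyte-like cells, 4.10 and 3.10 CPM in smooth muscle, 22.7 and 0.686 CPM in macrophage-like cells, 12.6 and 3.90 CPM in dendritic-like cells, and 1.85 and 0 CPM in epithelium. Serpinf1 was 34.8 and 7.78 CPM in endothelium, or 11.9% and 1.57% of the stromal level beside stromal markers at 8.47% and 2.67%, and its log2 ratio went from -2.16 to -1.22 with doublets kept. Serpinb6a was highest in lymphatic endothelium (258.8 and 303.5 CPM), followed in f/f by the mesothelium (211.5 CPM, 36 cells) and blood endothelium (179.2 and 160.6 CPM), where the ratio was 0.896 (0.811 to 0.990). It was 96.4 and 101.8 CPM in stroma, 115.5 and 78.1 CPM in pericyte-like cells, 78.4 and 59.7 CPM in smooth muscle, and 23.4 and 7.81 CPM in dendritic-like cells.

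In macrophage-like cells 5 members passed and all 5 were lower in d/d, with 44.8% of 5240 genes called (17.3% higher and 27.5% lower). Their levels are given beside those of the stromal markers, whose part in the lower serpin levels was not tested. Serpinh1 was 727.9 (f/f) and 74.1 CPM (d/d), or 47.7% and 6.81% of its stromal level, beside markers at 37.9% and 4.25%. Serping1 (102.0 and 19.2 CPM) was 40.5% and 4.19% of its stromal level. Serpinf1 (119.0 and 28.1 CPM) was at 40.6% and 5.68%, and Serpine2 (68.0 and 18.5 CPM) at 51.8% and 13.9%. With doublets kept the log2 ratios stayed negative but moved to -2.36 for Serpinh1, -1.24 for Serping1, -1.38 for Serpinf1 and -0.943 for Serpine2, from -3.3, -2.41, -2.08 and -1.88. Serpinb6a, which is expressed in leukocytes too, was 102.0 and 61.0 CPM (ratio 0.598, 0.434 to 0.828), and TMM scaling ended its call (log2 ratio -0.563). Serpinb8, an inhibitor of the proprotein convertase furin, had its highest level in these cells, with 31.2 CPM from 22 UMIs in f/f and 13.7 CPM from 20 UMIs in d/d, below the minimum for a call.

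The clade b inhibitors of granzymes and granule proteases were not limited to lymphoid cells. Serpinb9 was 105.9 CPM in f/f NK-like cells (88.7 to 125) and 246.5 CPM (187 to 319) in the 37 d/d NK-like cells, too few for a ratio. It was 105.8 CPM in the f/f mesothelium, 71.0 and 30.0 CPM in lymphatic endothelium, 48.1 and 39.5 CPM in blood endothelium, and 45.6 and 70.0 CPM in T-like cells. In stroma Serpinb9 was 6.81 and 8.99 CPM, in pericyte-like cells 15.9 and 9.76 CPM, in macrophage-like cells 9.91 and 4.11 CPM, and in epithelium 2.77 and 5.04 CPM. Serpinb6b was 74.3 and 250.7 CPM in NK-like cells. Serpina3g was 51.4 and 59.5 CPM there, with 45.6 and 32.3 CPM in T-like cells. Serpinb1a was highest among the lymphoid groups in T-like cells, at 91.1 CPM (49.8 to 153) in 58 f/f cells and 152.2 CPM (125 to 183) in 257 d/d cells, intervals that overlapped.

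In dendritic-like cells 2 members passed, with Serpinh1 lower (193.0 and 29.9 CPM) and Serpinb9 higher in d/d, and 36.3% of 3099 genes called (12.6% higher and 23.7% lower). The stromal markers were at 9.23% and 1.70% of stroma there, beside the Serpinh1 values. Serpinb9 (ENSMUSG00000045827, chr13:33003250-33017957) gave 3 UMIs in the f/f cells (5.41 CPM, 1.12 to 15.8) against 59 UMIs in the d/d cells (76.8 CPM, 58.4 to 99.02), with a ratio of 14.2 (4.62 to 70.8). A UMI was seen in 1.91% of cells in f/f against 17.3% in d/d, and in 1.69% and 10.1% after thinning, while 4.76% (f/f) and 6.16% (d/d) of stromal cells held one. The highest of the d/d cells held 8 of the 59 UMIs. In cluster 15 of the dendritic-like cells Serpinb9 was 6.97 CPM from 2 f/f UMIs and 47.5 CPM from 23 d/d UMIs, so the difference was also seen inside 1 cluster, whose marker scores for dendritic cells and macrophages were close (2.93 and 2.84). In 3 alternatives that left 46 to 64 f/f and 36 to 43 d/d cells in the class, Serpinb9 fell below 50 UMIs and was not called (log2 ratio 4.98 to 5.08). Serpina3g in the dendritic-like cells was 1.80 CPM from 1 UMI in f/f and 29.9 CPM from 23 UMIs in d/d, of which 1 cell held 13, and stayed below the minimum. The Serpinb9 window held an interferon-stimulated response element (GAAA, any 2 bases, then GAAA, on either strand, in capitals, here on the opposite strand) at -46 to -37. It was 1 of 3 among 61 serpin windows, with 3.44% of all promoter windows holding the motif. The others were of Serpina3a, which gave no UMI, and Serpinb6a. In dendritic-like cells Serpinb6a was 23.4 and 7.81 CPM, from 13 f/f and 6 d/d UMIs. The 250 bases of Serpinb9 lie at chr13:33004291-33004540 on the plus strand, inside the GENCODE gene, whose outermost start is further upstream.
Serpinb9: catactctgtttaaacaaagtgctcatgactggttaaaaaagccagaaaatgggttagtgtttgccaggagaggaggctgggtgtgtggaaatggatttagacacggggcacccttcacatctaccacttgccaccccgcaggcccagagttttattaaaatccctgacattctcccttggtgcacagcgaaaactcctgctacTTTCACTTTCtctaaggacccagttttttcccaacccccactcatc

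Among the remaining members, antithrombin (Serpinc1) gave 37 (f/f) and 34 UMIs (d/d), spread over endothelium, stroma and smooth muscle at 3.27 CPM or less. The antiplasmin gene Serpinf2 gave 9 and 27 UMIs in the same order, Serpina9 gave 2 and 20, Serpina3f gave 3 and 19, Serpinb9b gave 8 and 15, and heparin cofactor 2 (Serpind1) gave 1 in all. The mesothelium, 36 cells seen only in f/f, held the highest level of Serping1 in any cell group (1692 CPM, 1512 to 1888), together with 232.7 CPM of Serpinb1a and 190.4 CPM of Serpinb6b.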

How the data were processed

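Counts of UMIs per gene and cell were deposited by the authors as filtered matrices: per the submitters' processing notes they used Cell Ranger 3.0.1 and mm10, while per the file headers the matrices were written by cellranger 6.0.1. The libraries were made with a 3′ droplet kit, per the labels' protocols. The f/f matrix held 8164 barcodes and 55080123 UMIs, the d/d matrix 6661 and 44745031.

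Cells were kept from 1000 UMIs and 500 genes up, unless over 20% of their UMIs were mitochondrial (7610 and 6325 cells). Scrublet's own threshold marked 0 and 400 of them, so the highest-scoring cells at 0.8% per 1000 barcodes were removed instead (515 and 348). Among the cells passing, 8 barcodes occurred in both libraries. Cells of both libraries were clustered together with scanpy 1.11.5 (2000 variable genes with all serpins left out, 30 components, 15 neighbours, Leiden resolution 1) and named from marker lists. Clusters led by genes of another class or with under 3 detected markers stayed unnamed, and an epithelial sub-cluster led by muscle and stromal genes (100 and 18 cells) was set aside. UMIs were summed per class and library and scaled by the class total. Ratios have conditional exact intervals, tested on simulated data. A count of 0 was set to 3 counts for a bound. The symbol pattern matched 61 genes, of which 1 is not reported here. The members, marker lists and gene lists were chosen with earlier results of these data known. Described in a class were serpins with at least 50 UMIs there and 10% of their highest class level, with all 7 compared classes given for those above 1000 UMIs; up to 4 genes of each list were named. Alternatives were TMM factors (edgeR 4.0.16), other minimums, thresholds, filters and clusterings. Gene positions are GENCODE M21 on GRCm38.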

Additional observations from a re-analysis of the deposited data

Results flagged for a closer look

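Several serpins lay on opposite sides of 1 in different classes. These differences between classes were not tested, since each class gives 1 value per library. Serping1 had a log2 ratio of 0.864 in stroma and -4.19 in epithelium. Serpinf1 had 0.756 in stroma and -2.4 in epithelium. Serpinb9 had 3.83 in dendritic-like cells and -0.673 in smooth muscle. Serpinb6a had 0.585 in epithelium and -0.741 in macrophage-like cells. The epithelial values mix cell makeup and level, as the f/f parts were absent or nearly so in d/d. For Serpinb6a the d/d ratio was 1.05 (0.773 to 1.46) against luminal-like and 2.49 (1.62 to 4.01) against glandular-like cells. Its epithelial call ended with the set-aside sub-cluster, and its macrophage-like call under TMM scaling. The Serpinb9 call in smooth muscle ended in several alternatives.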

How the results depend on the processing

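No paired analysis was possible because each genotype has 1 library and the labels give no shared replicate numbers. The main counts of serpins past 1.5-fold were 7 in epithelium, 6 in pericyte-like cells, 5 in macrophage-like cells, 4 in stroma, 3 each in blood endothelium and smooth muscle, and 2 in dendritic-like cells. Of all genes, the shares past 1.5-fold were 39.5% in epithelium, 34.9% in pericyte-like and 44.8% in macrophage-like cells. They were 35.3% in stroma, 23.1% in blood endothelium, 27.1% in smooth muscle and 36.3% in dendritic-like cells. For the other thresholds, minimums and filters no share of all genes is given, so those counts show only how the calls depend on the setting. At 2-fold the counts were 2 in stroma, 3 in pericyte-like cells and 1 in blood endothelium. A minimum of 100 UMIs left 3 in pericyte-like and 1 in dendritic-like cells, and a minimum of 20 UMIs gave 6 in blood endothelium and 5 in dendritic-like cells. The dendritic-like count was 1 with cells of at least 2000 UMIs, with serpins kept in the clustering and at resolution 2, where the class held fewer cells and Serpinb9 fell below 50 UMIs. Counting cluster 7 with pericytes and keeping the epithelial sub-cluster, both chosen after seeing the data, left their counts within 1.5 times. Stroma cluster 5 alone gave 1, cluster 12 alone 1, and stroma without cluster 5, chosen after seeing the data, 3. Against f/f glandular-like cells the epithelial count was 3. In stroma cluster 12 the log2 ratio was -0.0814 for Serping1 and 0.159 for Serpinb6b (15 and 3 UMIs), on the other side of 0 from the whole stroma but with intervals that included 0. The summed UMIs of a list, in place of its median, gave 0.85 for cathepsins and 0.244 for TGF-beta response genes in stroma (medians 0.0735 and 0.863), and -0.124 for collagen partners and -1.91 for other inhibitors in epithelium (medians -1.42 and -0.526). TMM scaling, totals without mitochondrial and ribosomal genes, equal weighting of cells and separate clustering left each of the 7 counts within 1.5 times, as did keeping doublets except in blood endothelium, where the count was 5. Depth limits 45 of the 60 members, which had under 50 UMIs over all cells.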
